A study of Homo sapiens with 14 samples.

Results

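MALAT1 and NEAT1, 2 long noncoding RNAs that stay in the nucleus, were followed together with SFPQ, NONO and PSPC1, the proteins that coat NEAT1, in 14 RNA-seq libraries of IMR90 cells. These 5 genes were chosen by name from the 54628 gene symbols of the count files, with their levels across the groups and between replicates already in view. Their own values are therefore given as a description, with no test.

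IMR90 is a widely used strain of human lung fibroblasts, and the protocols name 2 isolates, I79 and I83, without tying a library to either. Untreated cells (WT) and untreated cells in which an siRNA lowered HMGB2 (siHMGB2) had 2 libraries each. All other libraries came from cells made senescent with 10 µM inflachromene (ICM), an HMGB1- and HMGB2-binding compound, given for up to 6 days. ICM alone had 4 libraries, numbered ICM 1 to ICM 4. A further siRNA against SRRM2, BANF1 or CTCF was combined with ICM in 2 libraries each (siSRRM2, siBANF1 and siCTCF). ICM 3, ICM 4 and both siCTCF libraries carry labels of another form, with cell line tags running from IMR91 to IMR94 although their titles name IMR90. They were treated as a second set of 4 libraries beside the first set of 10. All WT libraries belong to the first set, so set and treatment cannot be told apart in any comparison of these 4 libraries with WT. Within the first set, ICM-treated and untreated libraries also differed in composition, as given below. There, treatment and library composition cannot be told apart. The study asked how senescent cells gather CTCF on nuclear speckles and what this does for splicing. Nothing in the labels says that replicates came from separate cultures, so all p-values below measure only the spread between these libraries.

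Nuclear speckles are bodies rich in splicing factors, and MALAT1 is their best known RNA. Paraspeckles lie beside them and are built on the long form of NEAT1, onto which SFPQ, NONO and PSPC1, the 3 human members of the DBHS family (Drosophila behaviour, human splicing), assemble as dimers. Paraspeckles hold back certain RNAs and proteins in the nucleus and grow under stress. NEAT1 has a short form with a poly(A) tail and a long form that reads past the short form's end, and only the long form seeds the body.

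MALAT1 and long NEAT1 share an unusual way of ending. Neither ends with a poly(A) tail added at a signal. The enzyme RNase P cuts upstream of a tRNA-like RNA, called mascRNA beside MALAT1 and menRNA beside NEAT1, and the new end folds into a triple helix of U-rich and A-rich stretches. The 110 bases before each cut are shown because this shared end, without an added poly(A) tail, is what sets both RNAs apart from the mRNAs they are measured beside. Both were read from the plus strand of chromosome 11 in GENCODE release 29 transcripts (GRCh38), 5′ to 3′, and capitals mark the T-rich stretches and the final 11 bases.
MALAT1 end, chr11:65506007-65506116: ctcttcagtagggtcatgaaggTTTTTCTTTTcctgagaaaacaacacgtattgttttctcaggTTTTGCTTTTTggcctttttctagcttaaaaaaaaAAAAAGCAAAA
NEAT1 long end, chr11:65445431-65445540: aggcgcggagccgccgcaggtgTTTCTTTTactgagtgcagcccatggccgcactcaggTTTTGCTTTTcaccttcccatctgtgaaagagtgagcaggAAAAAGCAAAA
mascRNA, chr11:65506117-65506173: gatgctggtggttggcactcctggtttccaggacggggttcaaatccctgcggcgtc
menRNA, chr11:65445541-65445598: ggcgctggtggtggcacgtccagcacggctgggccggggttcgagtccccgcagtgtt

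The 2 ends were identical in 72 of 119 aligned columns (60.5%) and shared their final 11 bases. The 2 tRNA-like RNAs were identical in 40 of 59 columns (67.8%). Neither 110-base end held the poly(A) signal AATAAA. The labels name total RNA and a TruSeq kit, and whether RNA was selected through poly(A) tails is not given in the sources used here. mascRNA is listed with 0 counts in all 14 libraries under its own symbol.

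The 2 RNA genes are neighbours on chromosome 11 with 52197 bp between them in GRCh38.p14 (RefSeq): NEAT1 (Entrez gene 283131) spans 65422798 to 65445540 and MALAT1 (378938) spans 65497738 to 65506516. SFPQ (6421) lies on chromosome 1 from 35176380 to 35193145. NONO (4841) lies on chromosome X from 71283635 to 71301168. PSPC1 (55269) lies on chromosome 13 from 19671205 to 19782945. All 5 genes passed the filter on low counts. Their smallest count in any library was 1040 reads, for PSPC1 in siCTCF 1.

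Libraries had 22336161 to 58257456 gene counts, and levels are given as CPM, a gene's count per 1000000 gene counts of its library. The 10 fibroblast markers were detected in every library. Their summed levels were 20100 to 36110 CPM in the untreated libraries and 2030 to 13300 CPM in the ICM-treated ones. Of the 6 epithelial markers, KRT18 (17.7 to 194 CPM) and KRT8 (9.23 to 21 CPM) were detected in every library, EPCAM and CDH1 reached at most 0.68 CPM, and SFTPC and SCGB1A1 were at 0 in all 14. Of the 5 leukocyte markers, CD68 (39.1 to 104 CPM) and CD14 (0.243 to 12.9 CPM) were detected in every library, PTPRC and LYZ reached at most 0.0894 CPM, and CD3E was at 0 in all 14. The 4 endothelial markers reached at most 8.13 CPM (KDR). Of the targeted genes, WT held 27.7 and 28.0 CPM of HMGB2 and siHMGB2 held 3.18 and 3.52 CPM. For CTCF, ICM 3 and ICM 4 stood at 94.9 and 91.9 CPM, siCTCF 1 at 71.5 CPM and siCTCF 2 at 23.0 CPM. Levels of SRRM2 were 238 and 112 CPM in ICM 1 and ICM 2, 76.1 and 76.4 CPM under the label siSRRM2, and 59.0 and 17.0 CPM under the label siBANF1. Levels of BANF1 were 13.5 and 32.7 CPM in ICM 1 and ICM 2, and 17.0 and 36.7 CPM under the label siBANF1. SRRM2 thus reached its minimum under the label siBANF1, and BANF1 was not lower there than in the ICM library of the same number, which goes against that label. ICM 1 and siBANF1 1 also stood apart from the rest of the first set: 16.3% and 18.4% of their reads fell in no annotated feature, against 4.73% to 8.87% in the other 8.

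MALAT1, the speckle RNA, varied more than any of the other 4. WT held 527 and 632 CPM, and siHMGB2 held 462 and 494 CPM. ICM 1 held 13140 CPM and ICM 2 held 2265 CPM. The libraries labelled siSRRM2 held 2742 and 2422 CPM, and those labelled siBANF1 held 9531 and 2115 CPM. All 6 ICM-treated libraries of the first set lay above all untreated ones, and 2 of the 6, ICM 1 and siBANF1 1, lay far above the other 4. The second set ran the other way: ICM 3 and ICM 4 held 92.8 and 272 CPM, and siCTCF held 86.5 and 259 CPM. All 4 of these lay below WT and siHMGB2. Shares of all genes were counted only for comparisons of 2 groups and are given below. Ranked by CPM from the highest, MALAT1 was at place 3 of all symbols in ICM 1 and at place 2900 in siCTCF 1. Libraries of 1 treatment label, ICM 1-2 and ICM 3-4, thus lay on opposite sides of WT with no overlap.

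Each SE, here and below, comes from a single fit to all 14 libraries. It therefore also reflects the spread between replicates of groups outside the comparison. The fitted log2 fold change of MALAT1 was 3.65 ± 0.98 (SE, n = 2 and 2) for ICM 1-2 against WT and -1.94 ± 0.91 for ICM 3-4 against WT. Left without ICM 1, the first value was 1.76, and left without ICM 2 it was 4.44. For ICM 1-2 against WT, MALAT1 was the 1 gene of the 5 with both libraries above both of WT, as 32.3% of all 19126 genes tested were, and SFPQ the 1 with both below, as 25% were. For ICM 3-4 against WT, none lay above (42.6% of all genes did) and 4 lay below, all but NEAT1 (33.3% did). In order of mean level, ICM 1-2 (7701 ± 7690 CPM, SD) overlapped siBANF1 (5823 ± 5240 CPM), and siBANF1 overlapped siSRRM2 (2582 ± 226 CPM). siSRRM2 stood clear of WT (579.5 ± 74.2 CPM), WT stood clear of siHMGB2 (478 ± 22.2 CPM), which stood clear of ICM 3-4 (182 ± 127 CPM), and ICM 3-4 overlapped siCTCF (173 ± 122 CPM).

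The 7 groups did not order NEAT1, the paraspeckle scaffold, in the same way. WT held 193 and 222 CPM of NEAT1, and siHMGB2 held 159 and 184 CPM. ICM 1 held 1998 CPM and siBANF1 1 held 1571 CPM. ICM 2 and siBANF1 2, their partners, held 220.3 and 219 CPM, within the range of WT, and the libraries labelled siSRRM2 held 225 and 212 CPM. High NEAT1 in the first set was thus seen in 2 libraries of different groups, neither matched by its replicate. In the second set, ICM 3 and ICM 4 held 210 and 304 CPM of NEAT1, and siCTCF held 159 and 316 CPM, on both sides of WT.

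The fitted log2 fold change of NEAT1 for ICM 1-2 against WT was 2.35 ± 0.98, but it was -0.12 without ICM 1 and 3.21 without ICM 2, so ICM 1 decided its size and its direction. For ICM 3-4 against WT it was 0.06 ± 0.94. In order of mean level, only siHMGB2, the lowest at 172 ± 17.8 CPM, did not overlap its neighbour, WT, at 207 ± 20.3 CPM. From the top, the means were 1109 ± 1260 CPM in ICM 1-2, 895 ± 956 CPM in siBANF1, 257 ± 66.7 CPM in ICM 3-4, 237 ± 111 CPM in siCTCF and 219 ± 9.07 CPM in siSRRM2, each overlapping the next.

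**Figure D1:**
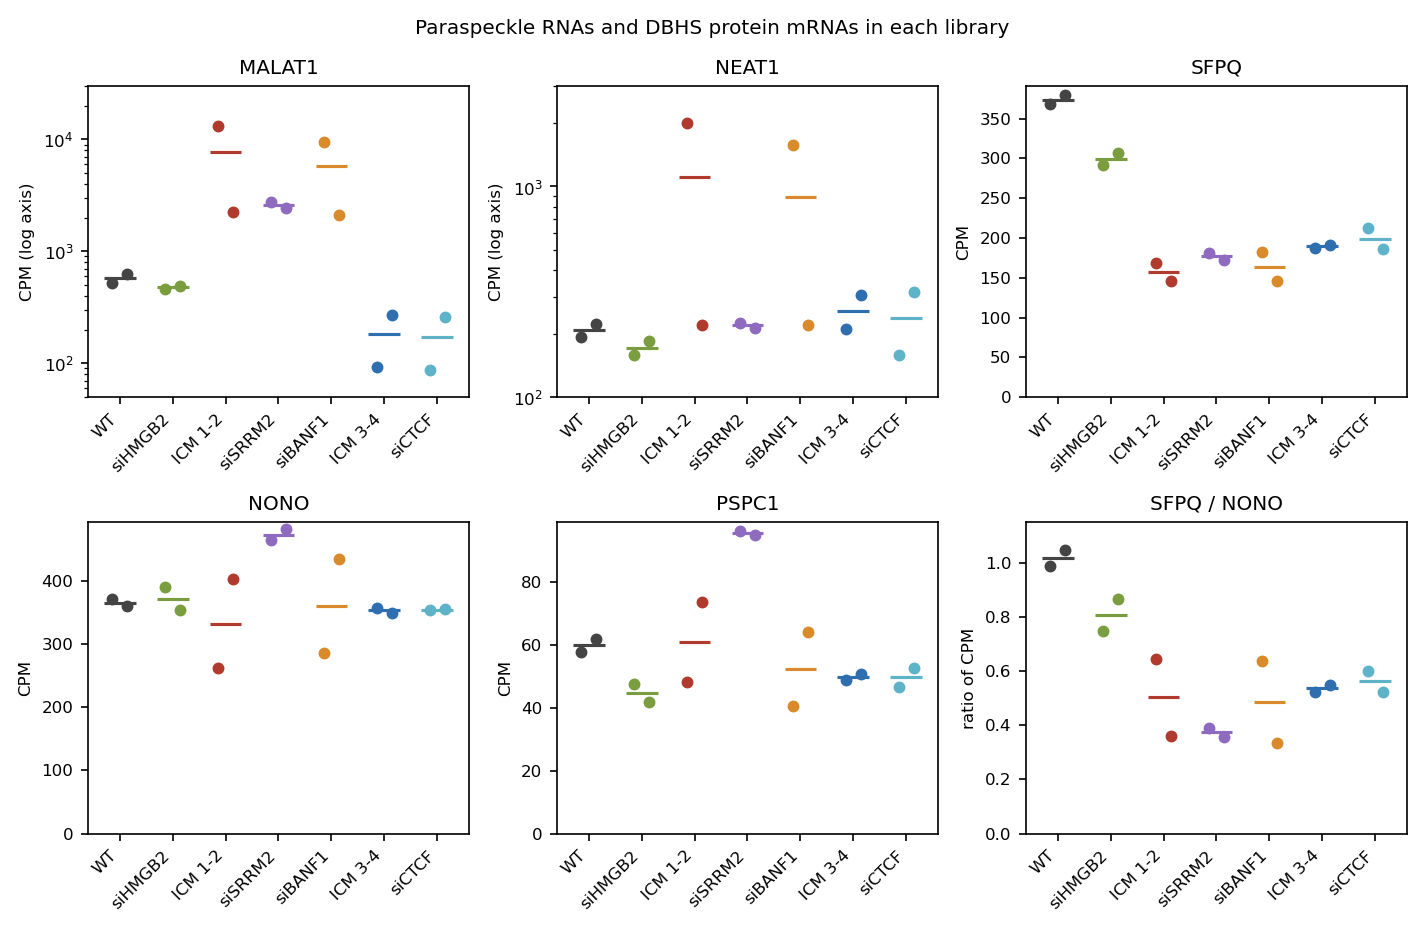
Levels (CPM) of the 5 genes, and the ratio of SFPQ to NONO, in each library (points; horizontal lines are group means, n = 2 libraries a group). MALAT1 and NEAT1 are on log axes, where ICM 1 (13140 and 1998 CPM) and siBANF1 1 (9531 and 1571 CPM) lie far above their partner libraries; the other panels start at 0, and SFPQ is below both untreated groups in all 10 ICM-treated libraries.

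Within the first set, the RNAs moved by unlike factors. ICM 1 held 5.80 times the MALAT1 of ICM 2 and 9.07 times its NEAT1, and siBANF1 1 held 4.51 and 7.16 times the level of siBANF1 2. The protein genes NONO and PSPC1 ran the opposite way, with ICM 1 at 0.649 and 0.654 times ICM 2 and siBANF1 1 at 0.658 and 0.634 times siBANF1 2. Library 1 of each pair was thus closer to library 1 of the other group than to its own replicate: siBANF1 1 held 0.726 times the MALAT1 and 0.786 times the NEAT1 of ICM 1, and siBANF1 2 held 0.934 and 0.996 times those of ICM 2.

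The ratio of MALAT1 to NEAT1 grouped the libraries in another way. It was 2.68 to 2.90 in the 4 untreated libraries, 6.07 to 12.2 in the 6 ICM-treated libraries of the first set, and 0.443 to 0.895 in the 4 of the second set, where NEAT1 exceeded MALAT1. These ranges did not overlap. Together MALAT1 and NEAT1 took 1.51% of gene counts in ICM 1 and 1.11% in siBANF1 1, and 0.0245% to 0.297% in the other 12 libraries.

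Several properties of the libraries also differed, and not all of them followed these levels. Reads in no annotated feature were 16.3% and 18.4% in ICM 1 and siBANF1 1 and 2.69% to 8.87% elsewhere. Small RNA genes took 3.19% to 6.06% of gene counts in all 6 ICM-treated libraries of the first set, and 0.00515% to 0.00812% in WT, siHMGB2 and the second set. Histone genes, whose main transcripts also lack a poly(A) tail, took 0.00892% to 0.0112% of gene counts in the 4 untreated libraries. In the 10 treated ones they took 0.0758% to 0.174%. The second set, with the least MALAT1, held 0.0821% to 0.105%, above ICM 1 (0.0781%) and siBANF1 1 (0.0758%), with the most. Reads aligned to more than 1 place were 14.5% to 20.7% in the 6 ICM-treated libraries of the first set and 7.15% to 8.51% elsewhere. The part of any of these in the levels of MALAT1, NEAT1 or other genes was not tested. In bulk RNA, fewer expressing cells and less RNA per cell cannot be told apart.

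**Figure D2:**
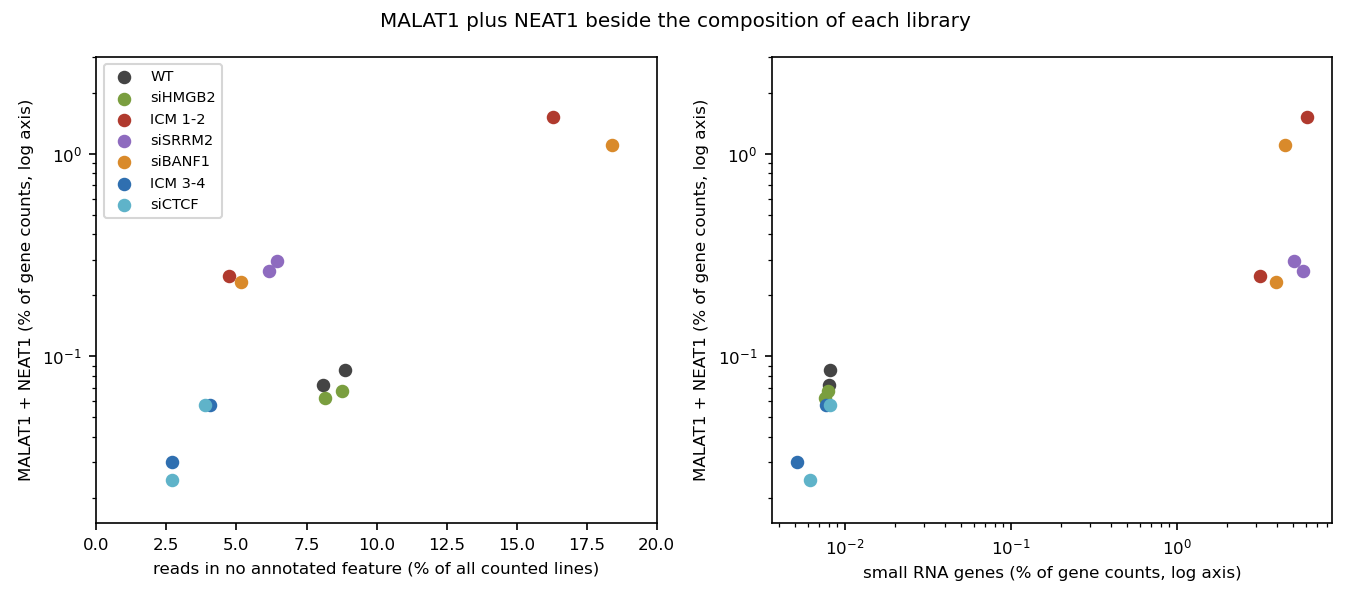
MALAT1 plus NEAT1 as a percentage of gene counts (log axis) against the percentage of reads in no annotated feature (left) and the percentage of gene counts in small RNA genes (right, log axis), 1 point per library, coloured by group. ICM 1 (1.51%) and siBANF1 1 (1.11%) lie at the top of both panels, and the 6 ICM-treated libraries of the first set lie between 3.19% and 6.06% small RNA, away from the other 8.

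TALAM1, an antisense RNA, covers 7205 bp (82.1%) of the span of MALAT1, and the strand setting of the counter is not given in the sources used here, so their reads may not have been told apart. TALAM1 was at 14.4 and 19.8 CPM in WT, 15 and 16.5 CPM in siHMGB2, and 0 to 4.45 CPM in the 10 treated libraries. Relative to MALAT1 it was 2.74% to 3.34% in the untreated libraries and at most 0.110% in the treated ones. On the CPM scale, reads set aside as ambiguous between genes came to 19230 to 136400, more than MALAT1 itself in every library. Only a part of those could stem from this locus, and how large it was cannot be read from the files. MIR612, a microRNA inside NEAT1, was listed with 0 counts in all 14 libraries.

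SFPQ, the DBHS protein that also acts in splicing and transcription, was the only one of the 5 genes to lie below both WT libraries in every ICM-treated library of both sets. WT held 368 and 380 CPM of SFPQ, and siHMGB2 held 292 and 306 CPM. ICM 1 to ICM 4 held 169, 146, 188 and 191 CPM in turn. The libraries labelled siSRRM2 held 181 and 172 CPM, those labelled siBANF1 held 182 and 146 CPM, and siCTCF held 212 and 186 CPM. All 10 treated libraries thus fell between 146 and 212 CPM, below every untreated one. The share of all genes with this pattern was not counted. Against WT alone, 25% of all genes lay lower without overlap for ICM 1-2 and 33.3% for ICM 3-4. The fitted log2 fold change of SFPQ against WT was -1.38 ± 0.24 for ICM 1-2 and -1.22 ± 0.24 for ICM 3-4. These 2 comparisons share the WT libraries. Across all alternatives the fold change ran from -1.56 to -1.21 and from -1.27 to -0.98. In order of mean level, WT (374 ± 8.15 CPM) was clear of siHMGB2 (299 ± 10.4 CPM), which was clear of siCTCF (199 ± 18.8 CPM). siCTCF overlapped ICM 3-4 (189.7 ± 2.34 CPM), which was clear of siSRRM2 (177 ± 6.35 CPM). siSRRM2, siBANF1 (164 ± 25.4 CPM) and ICM 1-2 (157 ± 15.9 CPM) overlapped in turn.

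NONO, the DBHS protein that pairs with SFPQ or PSPC1, ranged from 262 to 482 CPM. WT held 371 and 359.9 CPM of NONO, and siHMGB2 held 389.9 and 354 CPM. ICM 1 and ICM 2 held 262 and 404 CPM, on both sides of WT, and ICM 3 and ICM 4 held 358 and 349 CPM. The libraries labelled siBANF1 held 286 and 435 CPM and siCTCF held 354 and 355 CPM. Those labelled siSRRM2 held 465 and 482 CPM, above all 12 others, a pattern whose share of all genes was not counted. Their mean, 473 ± 11.9 CPM, was the only one clear of its neighbour, since the other 6 means, from 333 ± 100 CPM in ICM 1-2 to 372 ± 25.4 CPM in siHMGB2, overlapped in sequence.

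PSPC1, the least abundant DBHS gene, was, like NONO, highest in the libraries labelled siSRRM2. It was at 57.8 and 61.6 CPM in WT, 47.5 and 41.8 CPM in siHMGB2, 48.2 and 73.6 CPM in ICM 1 and ICM 2, and 48.9 and 50.7 CPM in ICM 3 and ICM 4. The siSRRM2 libraries held 96.0 and 94.7 CPM, above all 12 others, and the share of all genes doing so was not counted. Those labelled siBANF1 held 40.5 and 63.8 CPM and siCTCF held 46.6 and 52.6 CPM. The mean in siSRRM2, 95.3 ± 0.906 CPM, was clear of the next, 60.9 ± 18.0 CPM in ICM 1-2, and all lower neighbours overlapped, down to 44.6 ± 4.09 CPM in siHMGB2.

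The balance between the DBHS partners differed accordingly. The ratio of SFPQ to NONO in CPM was 0.991 and 1.05 in WT, 0.748 and 0.866 in siHMGB2, and 0.336 to 0.644 in all 10 treated libraries. The highest treated values, 0.644 and 0.637, were those of ICM 1 and siBANF1 1. A ratio within a library does not depend on how libraries are scaled. The summed CPM of the 3 DBHS genes was 797 and 801 in WT and lowest in ICM 1 (478) and siBANF1 1 (508). Processed pseudogenes can take reads from their parents. The NONO pseudogenes NONOP1 and NONOP2 held 10 to 115 and 3 to 47 counts. The pseudogene of PSPC1 (PSPC1P1) held 0 to 27 and that of SFPQ (SFPQP1) held 0, while the parent genes held at least 1040 in any library. Reads aligned to more than 1 place were left out, so these counts cannot show how many reads the parents lost.

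Levels of different genes were compared per kilobase of merged exons (CPM per kb). In WT, NONO (69.1 ± 1.51) and MALAT1 (65.6 ± 8.40) were the highest and did not differ beyond their spread, followed by SFPQ (50.3 ± 1.10), PSPC1 (12.4 ± 0.568) and NEAT1 (9.10 ± 0.892). In ICM 1-2, MALAT1 stood at 872 ± 871 and NEAT1 at 48.7 ± 55.2, against 62.9 ± 18.9 for NONO. In ICM 3-4, NONO (66.8 ± 1.18) led, then SFPQ (25.5 ± 0.314), MALAT1 (20.7 ± 14.3), NEAT1 (11.3 ± 2.93) and PSPC1 (10.3 ± 0.275). The merged length of NEAT1, 22767 bp, is that of the long form, so its value per kb is too low wherever the short form dominates. Counts per gene do not tell the forms apart.

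Both siHMGB2 libraries held less SFPQ and PSPC1 than both WT libraries, and both libraries labelled siSRRM2 held more SFPQ, NONO and PSPC1 than ICM 1 and ICM 2. For siHMGB2 against WT the fitted log2 fold changes were -0.22 ± 0.88 for MALAT1 and -0.21 ± 0.94 for NEAT1. They were -0.27 ± 0.24 for SFPQ, 0.08 ± 0.25 for NONO and -0.37 ± 0.23 for PSPC1. WT 2 held 1.2 times the MALAT1 of WT 1, and siHMGB2 2 held 1.07 times that of siHMGB2 1. The SE of 0.88 for MALAT1 is thus not the spread of these libraries alone. Both siHMGB2 libraries lay below both WT libraries for 4 of the 5 (all but NONO), as they did for 29.3% of all genes, and none of the 5 lay above, as 19.7% of all genes did. For the libraries labelled siSRRM2 against ICM 1-2 the values were -1.64 ± 0.90 for MALAT1 and -2.41 ± 0.98 for NEAT1, and both groups overlapped. Without ICM 1 they were 0.26 and 0.06, so ICM 1 decided both directions. SFPQ, NONO and PSPC1 were at 0.16 ± 0.24, 0.52 ± 0.25 and 0.66 ± 0.23, each with both libraries above both ICM libraries, as for 20.5% of all genes. None lay below both, as 21% of all genes did.

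The libraries labelled siBANF1 overlapped ICM 1-2 for all 5 genes, with log2 fold changes from -0.37 (MALAT1) to 0.15 (NONO). Over all genes, 6.24% lay above without overlap and 8.22% below. Replicates 1 and 2 differed alike in both groups (r = 0.792 over all genes tested), so overlap also reflects the difference between replicates. Against the ICM library of the same number, siBANF1 1 and siBANF1 2 held 0.84 and 0.867 times the PSPC1. For NONO the ratios were 1.09 and 1.08, and for SFPQ 1.08 and 1. The siCTCF libraries overlapped ICM 3-4 for all 5, with values from -0.12 (NEAT1) to 0.07 (SFPQ), where 7.52% of all genes lay above without overlap and 9.55% below. CTCF remained at 71.5 CPM in siCTCF 1 and reached 23.0 CPM in siCTCF 2, while MALAT1 was at 86.5 and 259 CPM there and at 92.8 and 272 CPM in ICM 3 and ICM 4.

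**Figure D3:**
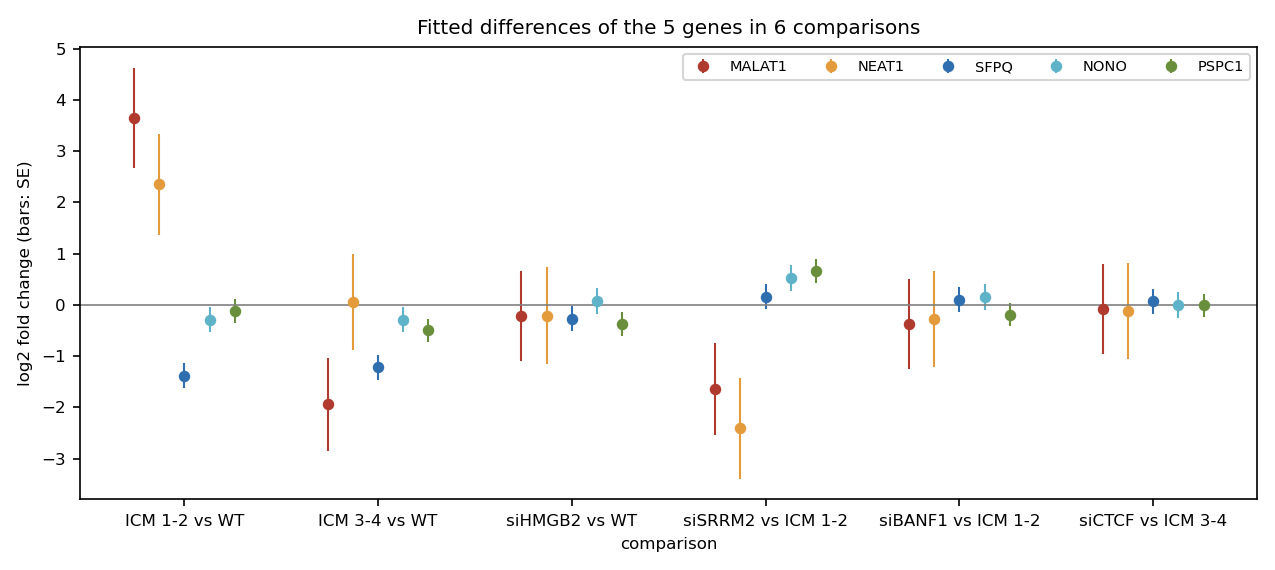
Fitted log2 fold changes of the 5 genes in 6 comparisons (points, with SE bars from a single fit to all 14 libraries, n = 2 libraries a group). MALAT1 is at 3.65 for ICM 1-2 and at -1.94 for ICM 3-4 against WT, SFPQ at -1.38 and -1.22, and the bars of MALAT1 and NEAT1 are several times longer than those of the protein genes.

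Other paraspeckle proteins were taken from a list of 30 genes, all of which were tested. The list was chosen with earlier results of these data known, so the shares below describe this list only. For ICM 1-2 against WT, 12 of the 30 (40%) passed an adjusted p under 0.05 (edgeR's quasi-likelihood F-test, Benjamini-Hochberg adjustment over all genes), where 13.5% of all genes did. Of these, 11 fell and 1 rose, where all genes held 6.87% lower and 6.63% higher. The median log2 fold change was -0.75 in the list and 0.10 over all genes, and 26 of 30 lay below 0. The count was 0 in a fit to the 4 compared libraries alone, 3 without WT 1 and 4 without WT 2, while over all genes the calls went from 2582 to 33, 563 and 545 in the same fits. With each of the 4 libraries left out in turn, 3 of the 12, HNRNPA1, HNRNPH3 and HNRNPUL1, were called every time.

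For ICM 3-4 against WT, 10 of the 30 (33.3%) passed, beside 30.3% of all genes, so their share was near that of all genes. Of these, 9 fell and 1 rose, beside 16.0% lower and 14.3% higher over all genes. The median was -0.41 beside -0.01 over all genes, and 24 of 30 lay below 0. The count was 4 without either WT library, 5 without either ICM library, and 20 without the ICM 1-2 and siBANF1 libraries. Over all 19126 genes, calls went from 5797 to between 1922 and 2602 with 1 library left out and to 10486 without the ICM 1-2 and siBANF1 libraries. With each library left out in turn, 4 of the 10, HNRNPA1, RBM12, RBMX and SRSF10, were called every time.

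Of the 5 genes listed for paraspeckle assembly, HNRNPH3 and DAZAP1 fell in ICM 1-2. HNRNPH3, an RNA-binding protein, was at 121 and 112 CPM in WT, 14.8 and 32.5 CPM in ICM 1 and ICM 2, and 81.6 and 115 CPM in ICM 3 and ICM 4. The siSRRM2 libraries held 15.5 and 13 CPM, siBANF1 18.2 and 28.99 CPM, siHMGB2 100.3 and 104 CPM, and siCTCF 88.3 and 113 CPM. All 6 treated libraries of the first set thus lay below the other 8, with no overlap. The same 6 stood apart in their content of small RNA genes. The share of all genes that divided the libraries in this way was not counted. The log2 fold change of HNRNPH3 was -2.46 ± 0.33 in ICM 1-2 (edgeR adjusted p = 0.00177) and -0.49 ± 0.32 in ICM 3-4 (edgeR adjusted p = 0.252). The difference between the 2 sets of ICM libraries was not tested for it. Its call in ICM 1-2 was lost when all 4 ICM libraries were taken as a single group and in the fit to the 4 compared libraries alone.

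DAZAP1 fell in both sets, from 160 and 151 CPM in WT to 61.2 and 53.3 CPM in ICM 1 and ICM 2 and to 101 and 65.8 CPM in ICM 3 and ICM 4 (log2 fold changes -1.57 ± 0.34 and -1.13 ± 0.34, edgeR adjusted p = 0.0159 and 0.0304). RBM14, which holds paraspeckles together through its prion-like domain, was at 32.8 and 33.7 CPM in WT and rose in ICM 3-4, at 104 and 76.3 CPM (log2 fold change 1.20 ± 0.33, edgeR adjusted p = 0.0218). In ICM 1-2 it was at 20.6 and 42.1 CPM (-0.24 ± 0.33). HNRNPK, which favours long NEAT1, had 659 and 629 CPM in WT, against 467, 885, 653 and 642 CPM in ICM 1 to ICM 4, and passed in neither. SMARCA4, a chromatin remodeller in paraspeckles, was at -1.05 ± 0.44 and -0.53 ± 0.44 and passed in neither.

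Of the 4 genes listed for the choice between the short and the long end of NEAT1, 3 fell in ICM 1-2, where 6.87% of all genes did, and another 1 fell in ICM 3-4, where 16% did. With 1 of the 4 compared libraries left out in turn, the call of CPSF7 was lost in 2 fits, those of CPSF6 and TARDBP in 3 and that of NUDT21 in all 4. NUDT21 and CPSF6, which form the cleavage factor that makes the short form, were at 0.13 ± 0.21 and -0.84 ± 0.20 in ICM 1-2, and CPSF6 fell (edgeR adjusted p = 0.0213). In ICM 3-4 they were at -0.82 ± 0.21 and -0.36 ± 0.20, and NUDT21 fell (edgeR adjusted p = 0.0163). CPSF7, the relative of CPSF6, fell in ICM 1-2 (-1.11 ± 0.23, edgeR adjusted p = 0.0131) and was at 0.66 ± 0.23 in ICM 3-4 (edgeR adjusted p = 0.0519). TARDBP, which encodes TDP-43 and favours the short form, fell in ICM 1-2 (-1.08 ± 0.26, edgeR adjusted p = 0.0223) and was at 0.40 ± 0.26 in ICM 3-4. Per library, TARDBP was at 155 and 150.3 CPM in WT, 56.3 and 104 CPM in ICM 1 and ICM 2, and 216 and 262 CPM in ICM 3 and ICM 4.

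Among the other 21 listed proteins, HNRNPA1, an abundant splicing regulator, showed the largest fall in ICM 3-4. It was at 1001 and 925 CPM in WT and 727 and 735 CPM in siHMGB2, against 101, 215, 194 and 199 CPM in ICM 1 to ICM 4, with no overlap. The log2 fold changes were -2.77 ± 0.37 and -2.53 ± 0.37 (edgeR adjusted p = 0.00176 and 0.00153). HNRNPH1, a splicing regulator that binds G-rich RNA, followed it from 44.6 and 40.5 CPM in WT to 5.49, 13.7, 13.5 and 16.0 CPM in ICM 1 to ICM 4 (-2.32 ± 0.44 and -1.77 ± 0.43). RBM12 fell in ICM 3-4, at 28.3 and 28.6 CPM against 73.8 and 68.4 CPM in WT (-1.56 ± 0.24), and was at 82.8 and 57.3 CPM in ICM 1-2 (-0.14 ± 0.24). ZC3H6 was the 1 gene to rise in ICM 1-2, at 27.6 and 14.4 CPM against 6.73 and 7.49 CPM in WT (1.45 ± 0.39, edgeR adjusted p = 0.0348). In ICM 3-4 it was at 4.18 and 5.99 CPM (-0.73 ± 0.39).

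The remaining calls, named after their values were seen, were all falls. SRSF10, a splicing factor, fell in both (-0.96 ± 0.21 in ICM 1-2 and -1.45 ± 0.21 in ICM 3-4), as did RBM4B (-1.05 ± 0.26 and -0.78 ± 0.25). HNRNPUL1 (-1.30 ± 0.23) and UBAP2L (-1.18 ± 0.25) fell in ICM 1-2 and were at -0.33 ± 0.22 and -0.31 ± 0.25 in ICM 3-4. RBMX (-1.47 ± 0.30) and MATR3 (-0.88 ± 0.30) fell in ICM 3-4 and were at -0.84 ± 0.30 and 0.02 ± 0.30 in ICM 1-2. The 2 comparisons share the WT libraries. HNRNPA1, HNRNPH1, DAZAP1, SRSF10, RBM4B and HNRNPUL1, like SFPQ, lay below all 4 untreated libraries in all 10 treated ones. All of them had already been called lower than WT in ICM 1-2, so part of this pattern follows from that choice. Against WT alone, 25% of all genes lay lower without overlap for ICM 1-2 and 33.3% for ICM 3-4. The margin was narrow for RBM4B (24.8 CPM in siHMGB2 2 and 24.4 CPM in siSRRM2 2). It was also narrow for HNRNPUL1 (243.7 CPM in siHMGB2 1 and 241.2 CPM in ICM 3). The share of all genes with this pattern was not counted. TAF15 was at 0 to 0.523 CPM in all libraries and carries no weight here.

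In the other 4 comparisons none of the 30 partner genes was called by edgeR or by DESeq2. Without adjustment, 0 had a p under 0.05 for siHMGB2 against WT, 2 for siSRRM2, 0 for siBANF1 and 0 for siCTCF. Over all genes, edgeR called 0%, 0.178% (0.0993% higher and 0.0784% lower), 0% and 0% in these comparisons. HMGB2 itself, with a log2 fold change of -3.00 ± 0.44 for siHMGB2 against WT, was thus not called by edgeR either. The 0 of 30 there therefore does not show that the partner genes were unchanged. An unadjusted p under 0.05 was reached by 908 genes for siHMGB2, 2168 for siSRRM2, 591 for siBANF1 and 125 for siCTCF, and DESeq2 called 74, 727, 24 and 0. With only WT and siHMGB2 in the fit, edgeR called 2055 genes, of which 2 were on the list.

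**Figure D4:**
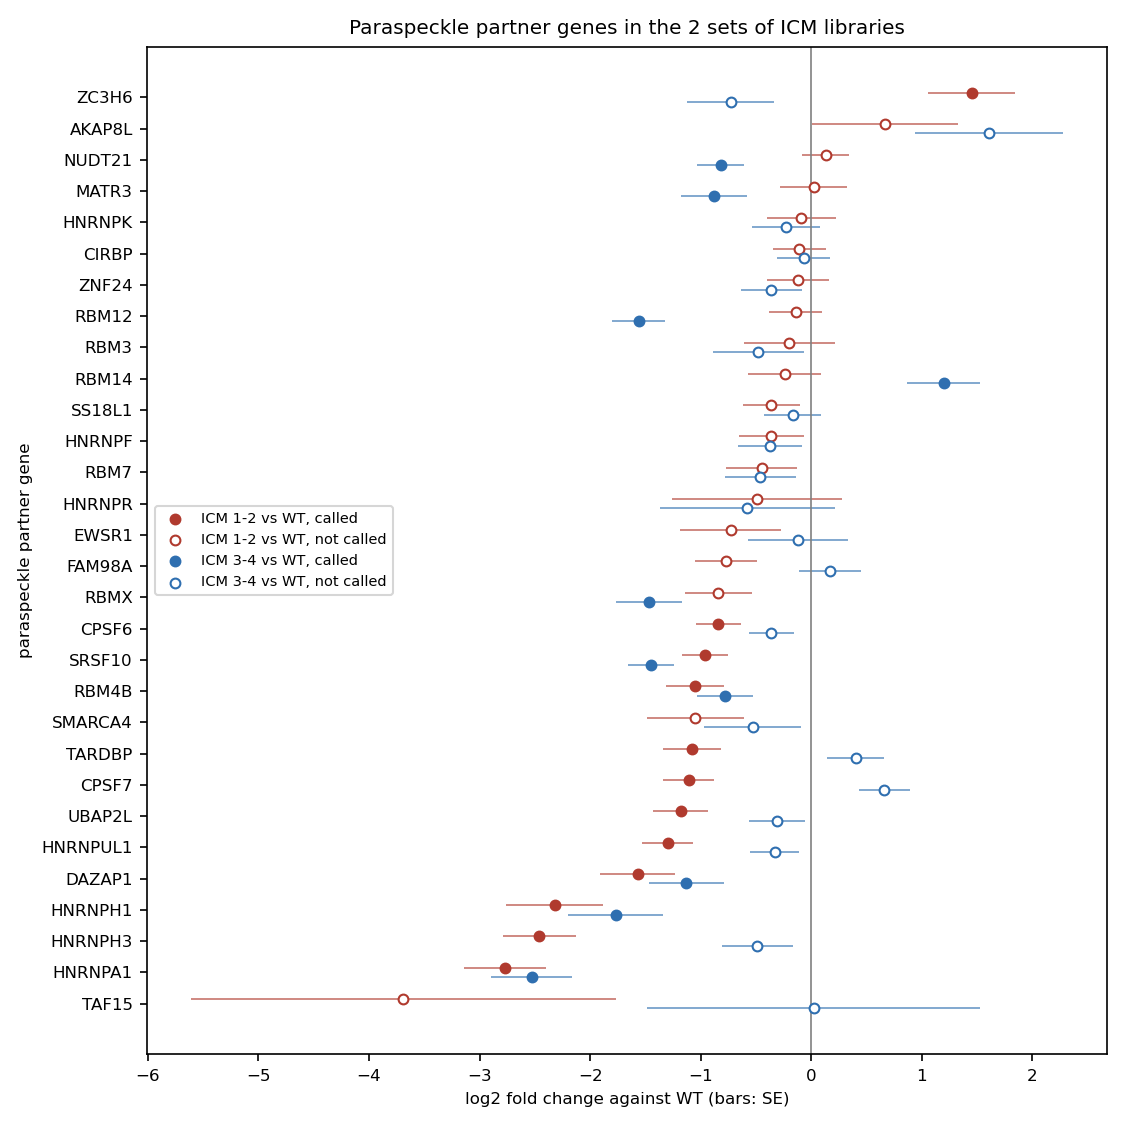
Log2 fold changes (points, with SE bars from a single fit to all 14 libraries) of the 30 paraspeckle partner genes against WT for ICM 1-2 (red) and ICM 3-4 (blue). Points are filled where the adjusted p was under 0.05 (n = 2 libraries a group, the WT libraries being shared). HNRNPH3 lies lower in ICM 1-2 (-2.46) than in ICM 3-4 (-0.49), while HNRNPA1 lies at -2.77 and -2.53.

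MALAT1 processing was followed through 12 genes for RNase P subunits, ELAC2 (which cuts the other end of mascRNA) and METTL16 (which binds the triple helix), of which 10 were tested. In ICM 1-2 none was called by edgeR, where 13.5% of all genes were, and the median log2 fold change was 0.55, against 0.10 over all genes, with 1 gene at an unadjusted p under 0.05 and 0 called by DESeq2. In ICM 3-4, 4 of the 10 were called, where 14.3% of all genes were called higher and 16% lower: POP7 (1.81 ± 0.53), POP4 (1.40 ± 0.46) and METTL16 (1.25 ± 0.35) rose and POP1 (-1.09 ± 0.36) fell. The median was 1.17 against -0.01 over all genes, and 9 of 10 lay above 0. Each of these 4 calls was lost when any 1 of the 4 compared libraries was left out. METTL16 was at 32.8 and 31.9 CPM in WT, 31.8 CPM in ICM 1, 78.7 CPM in ICM 2, and 89.4 and 91.8 CPM in ICM 3 and ICM 4. ICM 1, with the most MALAT1, thus held about as much METTL16 as the WT libraries. siBANF1 1 held 39.05 CPM, above both WT libraries, against 75.6 CPM in siBANF1 2.

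Among 18 other long noncoding RNAs, 16 were tested. LINC-PINT was the only one called by edgeR in ICM 1-2 (6.25% of the 16, where 13.5% of all genes were called), where DESeq2 called 4 higher and 1 lower. In ICM 3-4 edgeR called 3 (18.8%, where 30.3% of all genes were called). LINC-PINT rose in both (log2 fold changes 2.32 ± 0.38 and 2.20 ± 0.38, edgeR adjusted p = 0.00431 and 0.00307). WT held 12.0 and 10.9 CPM of it, against 71.4, 52.5, 53.8 and 70.8 CPM in ICM 1 to ICM 4, with no overlap. CYTOR (-1.22 ± 0.35) and MIAT (-4.53 ± 1.21), another RNA that gathers in nuclear bodies, fell in ICM 3-4. The call of LINC-PINT in ICM 1-2 was lost without WT 2, that of CYTOR without WT 1, WT 2 or ICM 4, and that of MIAT without WT 2, ICM 3 or ICM 4. MIAT was low throughout, at 1.61 and 4.00 CPM in WT and 0.0837 and 0.197 CPM in ICM 3 and ICM 4. The list's median was 0.21 in ICM 1-2 and -0.30 in ICM 3-4, beside 0.10 and -0.01 over all genes, and none was called in the other 4 comparisons, where 0 to 4 genes had an unadjusted p under 0.05 and DESeq2 called 0.

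KCNQ1OT1, a long nuclear RNA named here after its values were seen, shared the pattern of NEAT1. It was at 5.96 and 8.34 CPM in WT, 91.0 CPM in ICM 1 and 88.4 CPM in siBANF1 1, but 11.4 and 13.8 CPM in ICM 2 and siBANF1 2. In ICM 3 and ICM 4 it was at 2.97 and 9.30 CPM. MEG3, another nuclear RNA chosen in the same way, had 183 and 234 CPM in WT, 161 and 202 CPM in ICM 1 and siBANF1 1, and 23.9 and 25.8 CPM in their partners and 29.3 and 48.0 CPM in ICM 3 and ICM 4.

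The genes most like each of the 5 were sought by Pearson's r of log2(CPM + 1) over the 14 libraries among 9197 genes averaging 10 CPM or more. The libraries fall into clusters and share their depth and composition, so r is a description of these libraries. MALAT1 was most like VPS13C (0.985), HERC1 (0.984) and ZC3H6 (0.982). NEAT1 was most like KMT2C (0.962), NF1 (0.952) and NFAT5 (0.945). SFPQ was most like BEST1 (0.965), PTMA (0.963) and PTPRN (0.960), NONO like MYL12B (0.971), TMEM9B (0.969) and TMEM97 (0.946), and PSPC1 like C4orf3 (0.958), CYB5B (0.955) and LIFR (0.938).

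Several genes alike to the 2 RNAs are long, so the genomic span was compared, a choice made after the names were seen. The 50 genes most like MALAT1 had a median span of 154 kb (46 with a RefSeq span), and those most like NEAT1 117 kb (49), against 32.9 kb over all genes searched (9096 of 9197). The 50 most like SFPQ and NONO had medians of 12.8 kb (48) and 14.1 kb (49), and those most like PSPC1 36.9 kb (49).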

How the data were processed

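Total RNA was sequenced from both ends with a TruSeq kit in 14 libraries, per the labels' protocols. The authors deposited whole-number read counts per gene symbol, 1 file per library. The submitters' processing notes name STAR 2.7.3a, HTSeq 0.12.4, DESeq2 1.36.0 and hg38. The annotation release and the strand setting are not given in the sources used here. Of each library's reads, 12.8% to 41.8% stood in 5 summary lines that name no gene and were left out. CPM values are counts per 1000000 gene counts of a library (22336161 to 58257456).

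Counts were scaled by TMM, filtered with filterByExpr (19126 genes kept) and fitted together over the 14 libraries with edgeR 4.0.16 (R 4.3.3). The model held 7 group means, ICM being divided by set, and left 7 residual degrees of freedom. Calls are from the quasi-likelihood test, with Benjamini-Hochberg adjusted p under 0.05. The script was tested on simulated data. DESeq2 1.42.0, other scalings, a fit without the filter, fits to fewer libraries and left-out libraries were alternatives.

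The 5 genes and all lists were chosen with earlier results of these data known. Named partner genes were up to 3 called higher and 3 called lower with the largest change in each comparison, all 9 genes listed for assembly and NEAT1 end choice, and up to 3 long noncoding RNAs in each direction. Some genes are not reported here and were left out of the lists. Of the processing genes, those called were named, a choice made after the values were seen. Sequences came from GENCODE 29 transcripts, and positions and spans from RefSeq (GRCh38.p14). Among the 2 pairs that share replicate numbers in each first-set comparison, replicate differences correlated at -0.0719 to 0.792. The highest value was that of siBANF1 against ICM 1-2, and the labels give no pairing.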

Additional observations from a re-analysis of the deposited data

Results flagged for a closer look

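Among the 4 ICM libraries, 1 value stood far from the other 3 for 3 of the 5 genes, by the gap to the nearest library over the whole range (Dixon's 95% limit, passed by chance in about 1 in 20 groups that were not chosen for their values). The 5 genes were chosen with these values known and the 4 libraries come from 2 sets, so this is a description and not a test. MALAT1 in ICM 1 was at 13140 CPM (0.833 of the range), NEAT1 in ICM 1 at 1998 CPM (0.947) and PSPC1 in ICM 2 at 73.6 CPM (0.900). The 3 are not independent, since the same libraries gave them.

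MALAT1 in ICM 1-2 and in ICM 3-4 lay on opposite sides of both WT libraries, with a log2 fold change of -1.94 for ICM 3-4. The difference was not tested, and all WT libraries belong to the first set.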

How the results depend on the processing

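The 12 partner genes called for ICM 1-2 against WT became 0 with only the compared libraries, 6 with all 4 ICM libraries, and 3 to 10 when 1 library was left out. Those 10 called for ICM 3-4 became 4 to 5 with 1 library left out and 20 without the ICM 1-2 and siBANF1 libraries, a choice made after seeing the data. For siHMGB2 the count of 0 became 2 with only the compared libraries and 1 without the ICM 1-2 and siBANF1 libraries. With ICM 3-4 as the control, 14 were called for siSRRM2 and 8 for siBANF1, beside 4284 and 3016 of all 19126 genes. That control is from the second set, so set and siRNA label cannot be told apart there. For siCTCF it was 0 in every alternative run. The cause was not tested. A replicate block over the compared libraries gave 3 for ICM 1-2 and 2 for siHMGB2; over the first set it gave 9 and 0, and it changed no other partner count. No paired analysis was possible for ICM 3-4 against WT and for siCTCF because the groups share no replicate numbers.

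Against ICM 3-4, which belong to the other set, the log2 fold change of MALAT1 was 3.95 in siSRRM2 and 5.22 in siBANF1. Scaling moved the median of all genes from 0.102 to 0.241 (total counts) for ICM 1-2 and from -0.015 to 0.176 for ICM 3-4, and higher against lower calls from 1269 and 1313 to 1481 and 1130, and from 2732 and 3065 to 3448 and 2449. Over all genes, calls for ICM 1-2 were 2582, with 33 in the compared libraries alone and 4010 by DESeq2.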
